A study of Saccharomyces cerevisiae with 4 samples.

Results

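The genes described here are the 10 that make and break down trehalose and glycogen, the storage carbohydrates of budding yeast (Saccharomyces cerevisiae). They were chosen by function, with earlier results of these data known. TPS1, TPS2, TPS3 and TSL1 belong to trehalose synthesis and NTH1 and NTH2 to trehalose breakdown. GSY1, GSY2 and GLC3 belong to glycogen synthesis and GPH1 to glycogen breakdown. Each was read by 1 probe set that the array annotation pairs with that gene alone, and all 10 of the 10 passed the filter on low signals, among 4576 tested genes of 5656 on single-gene probe sets. RNA came from 2 cultures of a strain with mutant histone H3, in which lysines 4, 36 and 79 are replaced by arginine (H3 K4,36,79R), and 2 cultures of a wild-type strain, all at 0 h. Cultures of both strains were in mid-log phase in selective galactose medium, taken at an OD600 of 0.5 to 0.7. The series is a time course in which a later move to glucose represses the wild-type H3 gene and leaves the mutant as the only source of H3. The 0 h cultures precede that move, so by this design the mutant cultures still had wild-type H3 beside the mutant form, and the comparison asks what already differed between the strains in galactose. The strain backgrounds, the constructs that carry H3 and the number of clones are unstated in the labels and the design text.

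Trehalose is a disaccharide of glucose and glycogen a branched glucose polymer, and both start from glucose phosphates by way of UDP-glucose. Yeast fills these stores when nutrients run short, when growth slows or under stress, and empties them when growth resumes. Transcripts of many of the enzymes follow the general stress response, which the factors Msn2 and Msn4 drive and protein kinase A holds back. The enzymes themselves are also switched by phosphorylation, so transcript levels do not give the rate at which either store is made or used.

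Across the whole array, 2 genes differed past the test, URA3 and SIP18, both higher in the mutant (limma, Benjamini-Hochberg adjusted p under 0.05), which is 0.0437% of tested genes, and 0 were lower. The split depended on the scaling, with 6 higher and 5 lower without centring and 5 higher and 4 lower with quantile normalisation, and it was 20 higher and 12 lower with the replicate number as a block. URA3, of uracil synthesis and a common selection marker, had signals of 594 and 643 in the mutant cultures, against 14.1 and 14.6 in the wild-type cultures (log2 difference 5.35, limma adjusted p = 9.73e-06). The strains thus differed in this marker as well as in H3. Before adjustment, 225 genes (4.92%) had a p under 0.05 with the mutant higher and 165 (3.61%) with the mutant lower. Both H3 genes are read only by 3 probe sets that they share, which cannot tell a mutant from a wild-type copy, so the arrays do not check the genotype. GAL1, the galactokinase gene that galactose induces, had signals of 1058 and 1263 in the mutant cultures, against 1454 and 1424 in the wild-type cultures. Replicates were closer in the mutant than in the wild type, with an SD of their log2 differences over all tested genes of 0.27 in the mutant and 0.43 in the wild type. Each array reads RNA of a whole culture, so a different share of cells in some state and a different amount of RNA per cell cannot be told apart.

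Of the 10 genes, 8 were higher in the mutant by 0.23 to 0.62 on the log2 scale, where 48.4% of all tested genes had a positive difference, and NTH2 and GPH1 were at or slightly below the wild type. All differences are mutant minus wild type of log2(signal + 2), with each array centred on its median over the tested genes. On that centred scale both mutant arrays lay above both wild-type arrays for those 8 genes, a position that 21.0% of all tested genes held. On the deposited scale 5 of the 10 held it, against 10.1% of all tested genes. The median log2 difference of all tested genes was -0.11 there, where the mutant values appear to carry a scaling factor per array. None of the 10 passed the test over all genes (limma, adjusted p from 0.358 to 0.988). At an unadjusted p under 0.05 there were 5 of them, GLC3, NTH1, GSY2, TPS3 and TPS1, all higher in the mutant, beside the 4.92% of all tested genes found on that side. The median difference of the 10 was 0.40, beside -0.01 over all tested genes. Genes of 1 pathway are not independent of each other, and these counts describe the 10 without testing them as a group.

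**Figure D1:**
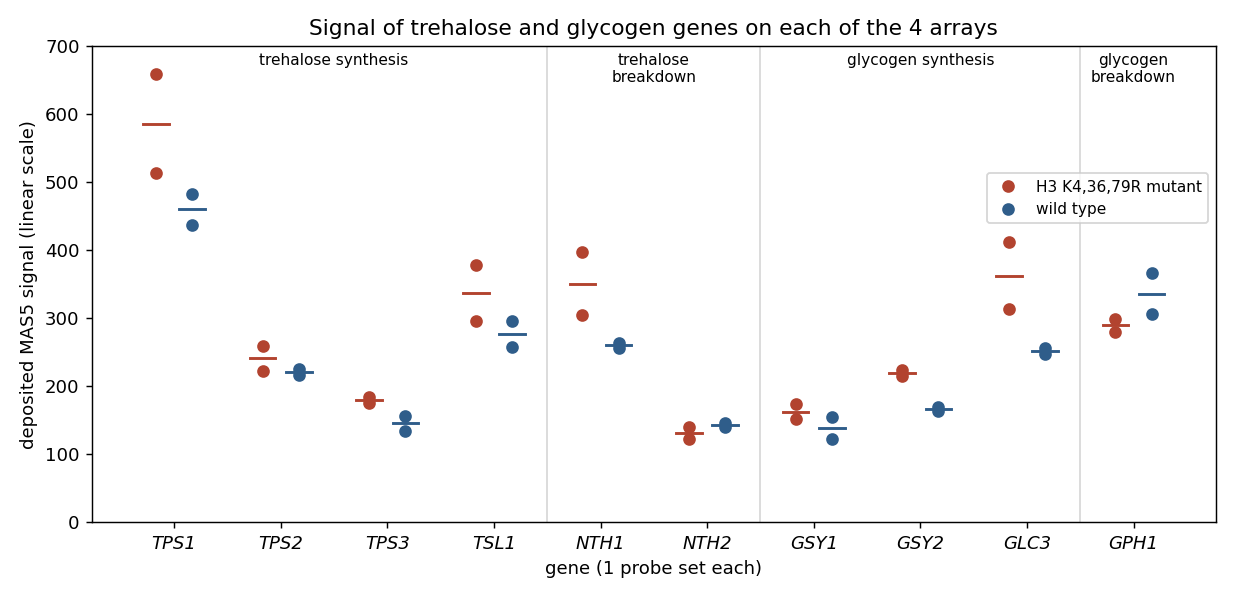
Deposited MAS5 signal on a linear scale (y) of the 10 genes (x), with the 2 mutant arrays left and the 2 wild-type arrays right of each gene. Points are single arrays and bars the mean of the 2. GLC3, NTH1, GSY2, TPS1 and TPS3 show both mutant points above both wild-type points, whereas NTH2 and GPH1 lie lower in the mutant on this uncentred scale.

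Trehalose is made in 2 steps by 1 enzyme complex. TPS1 (YBR126C) encodes its trehalose-6-phosphate synthase, which joins UDP-glucose to glucose-6-phosphate and which, through its product, also restrains the entry of sugar into glycolysis. Its deposited signal was 513 and 658 in the mutant cultures, against 436.5 and 482.8 in the wild-type cultures. Both mutant signals were thus above both wild-type signals, although the 2 mutant cultures lay further apart than the gap between the groups. On the centred log2 scale TPS1 averaged 2.62 ± 0.16 in the mutant and 2.17 ± 0.15 in the wild type (SD, n = 2 each). The difference was 0.44 (SE 0.18, 1.36-fold, 95% interval 0.02 to 0.86, limma adjusted p = 0.559).

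TPS2 (YDR074W) encodes the phosphatase that turns trehalose-6-phosphate into trehalose. Its signals were 222 and 259 in the mutant cultures, against 217 and 225 in the wild-type cultures, and the groups overlapped before centring. Once the arrays were centred, the mutant values of 1.30 and 1.39 lay just above the wild-type values of 1.06 and 1.18. The difference of 0.23 (SE 0.15, interval -0.13 to 0.58, limma adjusted p = 0.728) was the smallest among the 8 genes that were higher in the mutant. Without centring it was 0.12, where the median over all genes was -0.11.

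TSL1 (YML100W) and TPS3 (YMR261C) encode the large, related subunits that hold the complex together and regulate it. TSL1 signals were 295.6 and 378.6 in the mutant cultures, against 258.0 and 295.7 in the wild-type cultures. The lower mutant culture and the higher wild-type culture were thus level before centring. TSL1 averaged 1.82 ± 0.16 in the mutant and 1.44 ± 0.19 in the wild type on the centred log2 scale (SD, n = 2 each), a difference of 0.38 (SE 0.17, 1.30-fold, limma adjusted p = 0.612). It was 0.25 without wild-type replicate 1. TPS3 signals were 176 and 184 in the mutant cultures, against 156.5 and 134.1 in the wild-type cultures. These groups did not overlap on either scale, and the mutant cultures were close together. The difference of TPS3 was 0.41 (SE 0.16, 1.33-fold, interval 0.05 to 0.77, limma adjusted p = 0.547). The log2 ratio of TSL1 to TPS3 within an array was 0.74 and 1.04 in the mutant cultures, against 0.71 and 1.13 in the wild-type cultures. The groups overlapped in this ratio, and the 2 subunit genes differed between the strains by similar amounts, -0.03 apart. With 2 arrays against 2, an exact permutation test of a single ratio cannot go below p = 0.333 (two-sided). No other test was run on ratios between genes, and they are given as values.

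Trehalose is split into glucose in the cytosol by neutral trehalase. The 2 paralogs gave unlike values here, but they were not tested against each other. NTH1 (YDR001C), the main neutral trehalase gene, had signals of 304 and 397 in the mutant cultures, against 256.5 and 263.8 in the wild-type cultures. Both mutant cultures were above the wild type, and the wild-type cultures were nearly equal. NTH1 averaged 1.88 ± 0.18 in the mutant and 1.36 ± 0.08 in the wild type on the centred log2 scale (SD, n = 2 each). The difference was 0.52 (SE 0.16, 1.43-fold, interval 0.14 to 0.90, limma adjusted p = 0.457), and 4.44% of all tested genes had a higher one. NTH2 (YBR001C), its paralog, had signals of 123 and 139 in the mutant cultures, against 140 and 145 in the wild-type cultures. On the deposited scale the mutant lay below the wild type, a position that 31.1% of all tested genes held there, and after centring the groups overlapped. The difference of NTH2 was -0.02 (SE 0.16, interval -0.38 to 0.35, limma adjusted p = 0.988), so its direction is not settled. Within an array, the log2 ratio of NTH1 to NTH2 was 1.30 and 1.50 in the mutant cultures, against 0.87 and 0.85 in the wild-type cultures. The ratio was therefore higher in the mutant by 0.54 with no overlap, and a shift of a whole array leaves it as it is. Because each probe set has its own response, these untested ratios do not tell which paralog is more abundant.

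Glycogen synthase adds glucose from UDP-glucose to the growing chain, and yeast has 2 genes for it. GSY2 (YLR258W), the main synthase gene, had signals of 224 and 215 in the mutant cultures, against 164 and 169 in the wild-type cultures. The groups were well apart on both scales, with little spread within either. GSY2 averaged 1.22 ± 0.13 in the mutant and 0.72 ± 0.08 in the wild type on the centred log2 scale (SD, n = 2 each), a difference of 0.50 (SE 0.16, 1.41-fold, interval 0.13 to 0.87, limma adjusted p = 0.457). GSY1 (YFR015C), the minor synthase gene, had signals of 151 and 174 in the mutant cultures, against 122 and 155 in the wild-type cultures. Its lower mutant signal lay below its higher wild-type signal, and the groups separated only after centring. The difference was 0.34 (SE 0.19, interval -0.09 to 0.77, limma adjusted p = 0.660). The wild-type replicates of GSY1 were 0.41 apart (log2), more than for any other of the 10 genes, and leaving out wild-type replicate 1 gave a difference of 0.13, and leaving out replicate 2 one of 0.55. The log2 ratio of GSY2 to GSY1 within an array was 0.56 and 0.30 in the mutant cultures, against 0.42 and 0.12 in the wild-type cultures, and here the groups overlapped.

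GLC3 (YEL011W) encodes the branching enzyme, which moves short chains to branch points, and it showed the highest difference of the 10. Its signals were 314 and 411 in the mutant cultures, against 255 and 247 in the wild-type cultures. The wild-type cultures were nearly equal, and both mutant cultures exceeded them. GLC3 averaged 1.92 ± 0.18 in the mutant and 1.30 ± 0.02 in the wild type on the centred log2 scale (SD, n = 2 each). The difference was 0.62 (SE 0.16, 1.54-fold, interval 0.24 to 1.00). Of all tested genes 2.86% had a higher difference, and its unadjusted p was in place 70 of 4576, with a limma adjusted p of 0.358. Without any one array it ranged from 0.49 to 0.75.

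GPH1 (YPR160W) encodes glycogen phosphorylase, which releases glucose-1-phosphate from chain ends. Its signals were 298 and 280 in the mutant cultures, against 366 and 306 in the wild-type cultures. The mutant lay below the wild type on the deposited scale, as for 31.1% of all tested genes, and the groups overlapped after centring. GPH1 averaged 1.61 ± 0.16 in the mutant and 1.72 ± 0.13 in the wild type (SD, n = 2 each), a difference of -0.10 (SE 0.17, interval -0.49 to 0.28, limma adjusted p = 0.906), and it was 0.01 without mutant replicate 2. Set against the synthase within an array, the log2 ratio of GSY2 to GPH1 was -0.41 and -0.38 in the mutant cultures, against -1.15 and -0.84 in the wild-type cultures. This ratio was higher in the mutant by 0.60 with no overlap. The pair was chosen after its values had been seen.

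**Figure D2:**
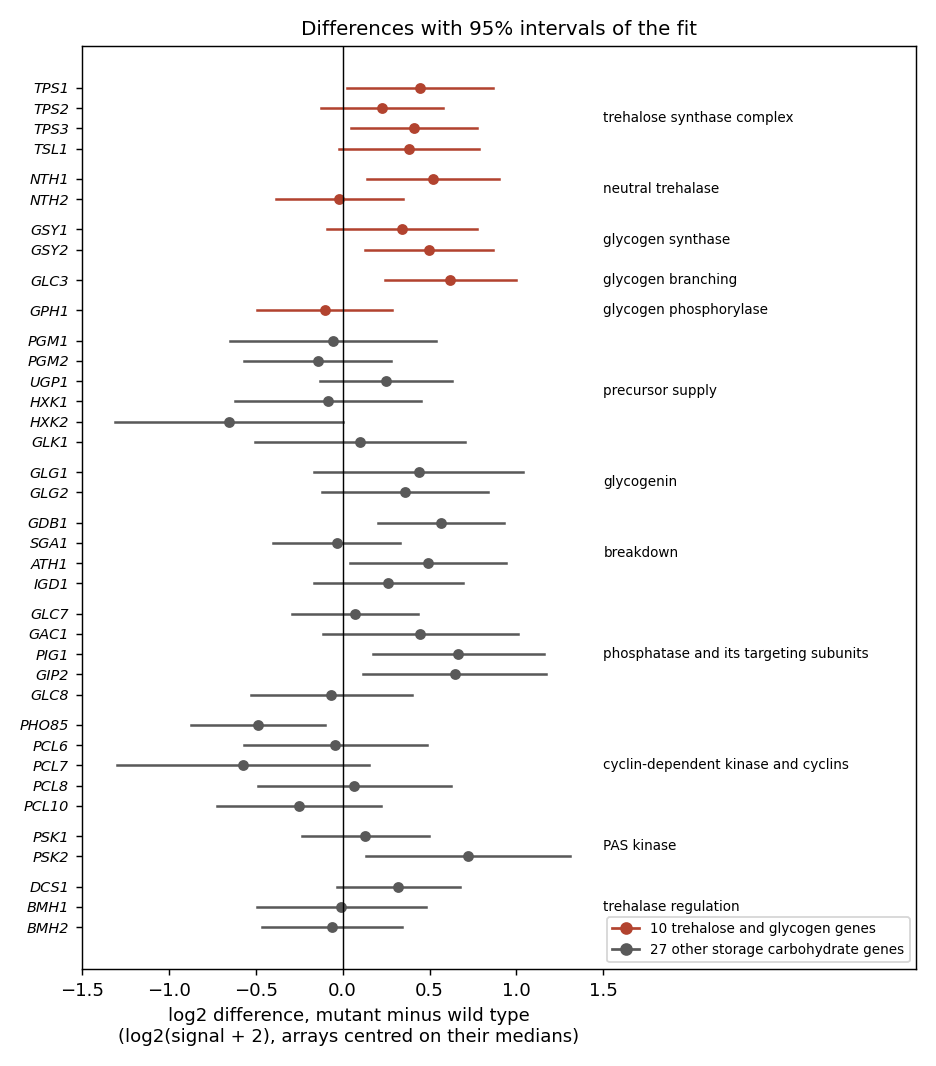
Log2 differences, mutant minus wild type (x), with the 95% intervals of the limma fit, for the 10 genes and for 27 other storage carbohydrate genes ordered by role (y). Among the 10, the intervals of TPS1, TPS3, NTH1, GSY2 and GLC3 lie above 0. The intervals are not adjusted for the number of genes.

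Of 28 other genes that supply, start, regulate or break down these stores, 27 were tested and 0 passed the test over all genes (limma, adjusted p from 0.398 to 0.997). PIG2, which encodes a Glc7-binding protein related to Gip2, lay below the filter, with signals of 7.8 and 11.7 in the mutant cultures and 11.6 and 10.9 in the wild-type cultures. Of the 27, 15 were higher and 12 lower in the mutant, with a median of 0.07. This median had no settled direction, at -0.033 without centring and -0.0047 with the dimmer 50% of probe sets left out, and it was 0.16 without wild-type replicate 2. In 11 of them both mutant arrays lay above both wild-type arrays after centring, beside 21.0% of all tested genes. In 4 both lay below, beside 18.5%. At an unadjusted p under 0.05 (limma) there were 5 higher and 1 lower, beside 4.92% and 3.61% of all tested genes.

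Further enzymes of the pathways, singled out for their role after their values had been seen, gave a mixed picture. GDB1, the debranching enzyme that works with phosphorylase, had signals of 360 and 419 in the mutant cultures, against 276 and 288 in the wild-type cultures. It differed by 0.57 (SE 0.16, limma adjusted p = 0.398), whereas the phosphorylase gene was at -0.10. The log2 ratio of GDB1 to GPH1 was 0.27 and 0.58 in the mutant cultures, against -0.41 and -0.09 in the wild-type cultures, with no overlap. ATH1, the acid trehalase gene, differed by 0.49 (SE 0.19), and its signals were 95.9 and 110 in the mutant cultures and 91.0 and 67.3 in the wild-type cultures. GLG1 and GLG2, the glycogenin genes that prime new chains, differed by 0.44 (SE 0.26) and 0.36 (SE 0.20), both at signals of 45.2 or less. GLG1 signals were 45.2 and 41.9 in the mutant cultures, against 43.5 and 26.8 in the wild-type cultures, an overlap before centring. Without wild-type replicate 2 GLG1 was at 0.14. Of the 6 genes that supply precursors, 2 were higher and 4 lower in the mutant. UGP1, which makes UDP-glucose, was at 0.25 (SE 0.16), PGM2, the main phosphoglucomutase gene and also a step of galactose use, at -0.14 (SE 0.18), and HXK2, described with the regulators, at -0.65. SGA1, the sporulation glucoamylase gene, was at -0.03 (SE 0.16).

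The 3 highest of the 27 were regulators. PSK2, the gene of a PAS kinase that phosphorylates Ugp1 and glycogen synthase, differed by 0.72 (SE 0.25), and its signals were 57.8 and 68.4 in the mutant cultures and 52.0 and 31.2 in the wild-type cultures, the wild-type pair being far apart. PIG1 and GIP2 encode proteins that bind the phosphatase Glc7, and Pig1 is related to Gac1, which directs it to glycogen synthase. PIG1 and GIP2 differed by 0.67 (SE 0.21) and 0.64 (SE 0.23), both at low signals, of 50.7 or less. GLC7 itself, which encodes the catalytic subunit, was at 0.07 (SE 0.16). The 3 lowest were HXK2 at -0.65 (SE 0.28), PCL7 at -0.57 (SE 0.31) and PHO85 at -0.48 (SE 0.17). PCL7 rested on 1 array, with signals of 39.1 and 87.4 in the mutant cultures against 102.6 and 87.9 in the wild-type cultures, and it was at -0.08 without mutant replicate 1. Leaving out wild-type replicate 2 gave HXK2 a difference of -0.33 and PSK2 one of 0.41. HXK2 encodes the main hexokinase of glucose growth. PHO85 encodes the cyclin-dependent kinase that, with the cyclins Pcl8 and Pcl10, phosphorylates and restrains glycogen synthase, and PCL7 encodes another of its cyclins. PHO85 signals were 143 and 159 in the mutant cultures, against 212 and 247 in the wild-type cultures (limma adjusted p = 0.492). Both mutant arrays lay below on both scales, as for 31.1% of all tested genes on the deposited scale and 18.5% after centring. Of the 5 genes of this kinase group 4 were lower in the mutant, where 48.4% of all tested genes were higher. PCL8 was at 0.07 (SE 0.24), PCL10 at -0.25 (SE 0.20) and PCL6 at -0.04 (SE 0.23). Without mutant replicate 2 PCL6 was at 0.08, so its direction is not settled.

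Of the signalling genes upstream of stress and storage transcripts, 0 of 15 tested passed the threshold (limma), where 0.0437% of all tested genes did. Their median difference was 0.04, beside -0.01 over all tested genes. The highest was PDE1, which encodes the low-affinity cAMP phosphodiesterase, at 0.74 (SE 0.17, limma adjusted p = 0.249). Its signals were 120 and 151 in the mutant cultures, against 90.2 and 82.2 in the wild-type cultures. PDE1 was the only gene of the 15 with both mutant arrays above both wild-type arrays after centring, beside 21.0% of all tested genes. RIM15, a kinase gene of entry into quiescence, and the stress factor gene MSN4 followed at 0.30 (SE 0.21) and 0.28 (SE 0.23). The lowest were RAS1 at -0.28 (SE 0.22), CYR1, the adenylate cyclase gene, at -0.24 (SE 0.19) and IRA2, which encodes a brake on Ras, at -0.05 (SE 0.18). MSN2 was at 0.10 (SE 0.17).

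Other genes of the general stress response were examined beside the 10. Of 26 such genes, 20 were higher and 6 lower in the mutant, where 48.4% of all tested genes were higher. Their median difference was 0.34. The list was chosen with earlier results of these data known, so a called gene in it is not a result about the list. Of the 26, 1 passed the test over all genes (limma), where 0.0437% of all tested genes did. That gene was SIP18, known from the osmotic and desiccation response, at 1.64 (SE 0.16, limma adjusted p = 0.0202). ALD3, an aldehyde dehydrogenase gene, and GPX1, a glutathione peroxidase gene, were next at 1.51 (SE 0.20) and 1.01 (SE 0.19). TMA10 at -0.52 (SE 0.19), DDR48 at -0.28 (SE 0.25) and SPI1 at -0.24 (SE 0.19) were lowest. In 13 of the 26 both mutant arrays lay above both wild-type arrays after centring, beside 21.0% of all tested genes. In 2 both lay below, beside 18.5%.

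Wild-type replicate 1 stood low on both sets of genes. Over the 10 genes, the median deviation from a gene's own mean was 0.12 and 0.19 (log2) on the mutant arrays, against -0.31 and -0.09 on the wild-type arrays. Over the 26 stress genes it was 0.11 and 0.22 on the mutant arrays, against -0.31 and 0.09 on the wild-type arrays. Wild-type replicate 2 was thus close to mutant replicate 1 on the stress genes and below both mutant arrays on the 10. Replicate 2 exceeded replicate 1 by a median of 0.06 in the mutant and 0.46 in the wild type on the stress genes. On the 10 genes it did so by 0.08 in the mutant and 0.12 in the wild type. Without wild-type replicate 1 the median difference of the stress genes was 0.07, whereas that of the 10 was 0.29. What part the level of the stress genes had in the values of the 10 was not tested.

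**Figure D3:**
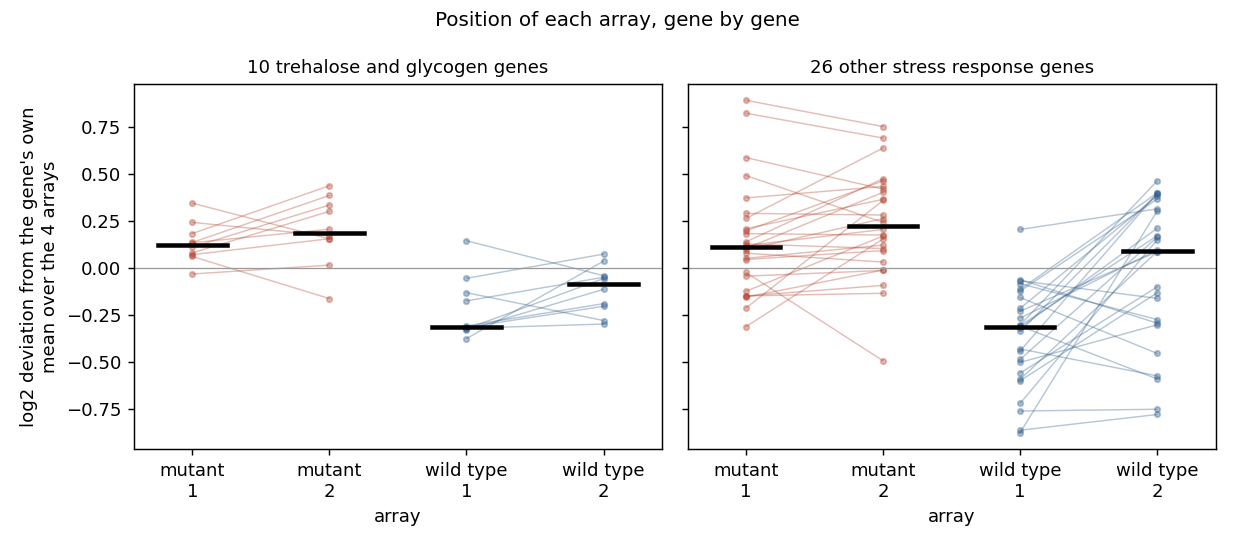
Deviation of each array from a gene's own mean over the 4 arrays (y, log2), for the 10 genes (left panel) and 26 other stress response genes (right panel). Thin lines join the 2 replicates of a group for 1 gene, and black bars are medians. On the left both mutant medians lie above both wild-type medians by more than on the right, where wild-type replicate 2 sits at 0.09.

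The differences of the 10 moved with single arrays. For the 8 genes that were higher in the mutant, both mutant arrays lay above both wild-type arrays after centring. Leaving out 1 array therefore could not turn their sign, and the 4 such fits show only how far the size moved. It ran from 0.13 for GSY1 without wild-type replicate 1 to 0.75 for GLC3 without mutant replicate 1. NTH2 and GPH1 took either sign. The lowest adjusted p of any of the 10 in any of these fits or of 10 other settings was 0.111, for GLC3 without wild-type replicate 1 (limma).

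**Figure D4:**
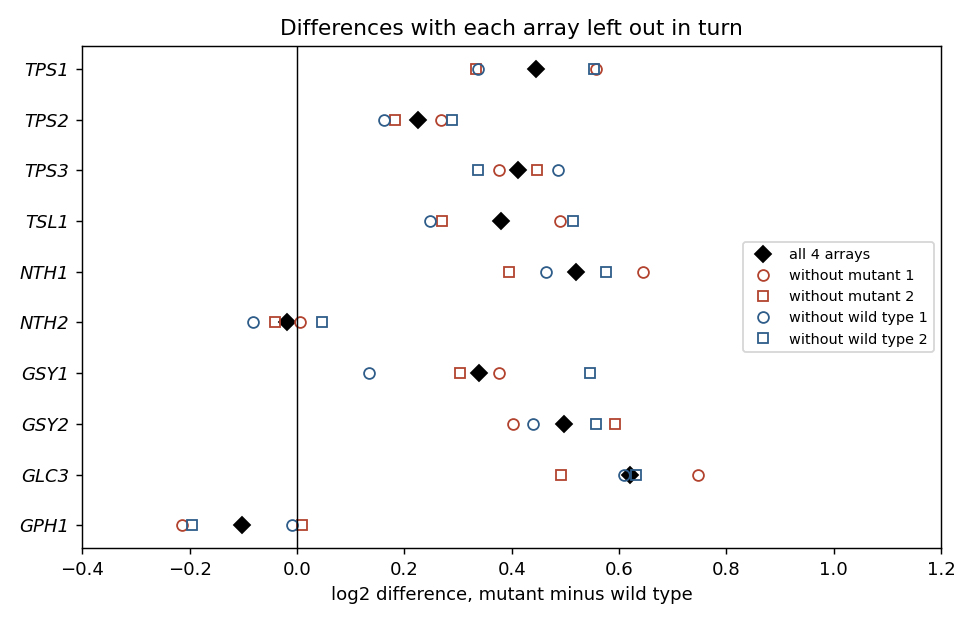
Log2 difference, mutant minus wild type (x), of the 10 genes (y) with all 4 arrays (filled diamonds) and with 1 array left out (open symbols, with mutant arrays in red and wild-type arrays in blue). The lowest value among GLC3, NTH1 and GSY2 is 0.40, and NTH2 and GPH1 lie around 0.

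The genes whose pattern over the 4 arrays was nearest to the median pattern of the 10 were sought among the other 4566 tested genes by Euclidean distance (log2, each gene relative to its own mean). The 5 nearest were MRL1, YPR148C, SSE2, DBF2 and POM33, at distances from 0.05 to 0.07. SSE2 encodes a cytosolic chaperone of the Hsp110 family that is induced by stress, and MRL1 a membrane protein related to mannose-6-phosphate receptors. DBF2 encodes a kinase of mitotic exit and POM33 a protein of the nuclear envelope. The 5 differed by 0.31 to 0.40 on the log2 scale and none passed the test (limma, adjusted p from 0.559 to 0.716). Among the 10 themselves the distances ranged from 0.12 for TSL1 to 0.58 for GPH1. The 5 were taken as the nearest of 4566 genes, so their smaller distances follow from that choice. A pattern over 4 arrays is shared by many genes by construction, so nearness here is a description only.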

How the data were processed

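The deposited values are linear intensities (MAS5 signals, per the submitters' processing notes), with 1 value per probe set and array. Wild-type values carry 1 decimal and mutant values more, as after a further scaling of each mutant array. Centring largely removes such a factor, but comparisons on the deposited scale include it. Version, scaling target and genome build are not given in the sources, and no coordinates are printed. Per the labels, each culture gave roughly 20 ug of total RNA for biotin labelling. Precision is limited by having 2 arrays per group.

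Probe sets were named through the platform annotation, and all 5656 gene IDs matched the RefSeq table. Signals were raised by 2, their 10th percentile, before log2, which understates changes of dim genes. The lowest 25% of 6504 single-gene probe sets by mean signal were left out, a gene's brightest probe set was used, and each array was centred on its median. The fit was limma 3.58.1 in R 4.3.3 (variance trend with intensity, 2 residual degrees of freedom, 5.63 prior), two-sided, adjusted over 4576 genes. It was tested on simulated data. Python 3.11.15 and matplotlib 3.10.9 made tables and figures.

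Members, lists and tests were chosen with earlier results of these data known. Named genes were the 10, list genes past the threshold, the 3 highest and 3 lowest of each other list, and the 5 nearest in pattern. GDB1, ATH1, GLG1, GLG2, UGP1, PGM2, SGA1, GLC7, PCL6, PCL8, PCL10, PIG2 and MSN2 were added for their role after their values had been seen. Alternatives covered scaling, pseudocount, filter, probe sets, variance trend, a replicate block and each array left out. Replicate numbers are not said to mark a shared day, so they were not taken as pairs. The deviations of same-numbered arrays correlated at 0.04 over genes, which cannot exclude a shared effect on particular genes.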

Additional observations from a re-analysis of the deposited data

How the results depend on the processing

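Over 14 alternatives, 137 of 140 values of the 10 genes kept their direction, and 0 of the 10 passed under the 10 settings on all arrays. Many of these directions could not change. Dropping the variance trend or adding the replicate block leaves each difference as it is. For the 8 genes higher in the mutant, the centred arrays did not overlap, so leaving out 1 array could not turn the sign. The 3 reversals were NTH2 at 0.0058 without mutant replicate 1 and 0.047 without wild-type replicate 2, and GPH1 at 0.0093 without mutant replicate 2 (the cause was not tested); without an array NTH2 lay between -0.082 and 0.047 and GPH1 between -0.214 and 0.0093. The median of the 10 was 0.29 to 0.40 under 10 settings on all arrays and 0.29 to 0.53 without an array, the highest without wild-type replicate 2. The number of genes past the threshold, 2 as reported, was 11 without centring, 9 with quantile normalisation, 8 with cyclic loess, 7 with the lowest 50% left out, 9 with the mean of probe sets, 1 without a variance trend and 32 with the replicate block; the cause was not tested. It was 1 to 21 without an array, in fits with fewer degrees of freedom that assume a lone array varies as the other group does. With the replicate block 0 of the 10 genes passed. The median of the other storage carbohydrate genes, 0.07, was -0.033 without centring, 0.13 with quantile normalisation, -0.0047 with the lowest 50% left out and 0.031 to 0.16 without an array. That of the stress genes was 0.067 to 0.42 without an array.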
